A study of Mus musculus with 8 samples.

Results

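The genes described here are the classical and accessory genes of MHC class II antigen presentation in mouse hematopoietic stem and progenitor cells: the class II chains H2-Aa, H2-Ab1 and H2-Eb1, the invariant chain Cd74, the peptide loading genes H2-DMa and H2-DMb1, and the transactivator Ciita. They were taken by gene symbol from the expression tables, where all 7 were found among 24346 symbols. RNA sequencing was performed on wild-type (WT) bone marrow cells of adult C57BL/6 mice of either sex, sorted as HSCs (lineage-negative Sca-1+ c-Kit+ cells lacking CD48 and carrying CD150) or as LSK cells, the broader lineage-negative Sca-1+ c-Kit+ fraction that contains the HSCs. Each population was cultured for a day in serum-free medium with cytokines, either alone (HSC_Ctrl, LSK_Ctrl) or with red blood cells that had been passed through a leukocyte filter and irradiated (HSC_RBC, LSK_RBC). Before RNA extraction all cultures were hemolyzed and CD45-positive cells were sorted, so the Sca-1 and c-Kit gate was not applied again after culture. Each of the 4 groups had 2 libraries, and the labels do not say whether these came from separate mice or cultures, so p-values measure the spread between these libraries, which may be technical.

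MHC class II molecules are surface heterodimers that show peptides from the endocytic route to CD4 T cells. The alpha and beta chains assemble with the invariant chain, which fills the groove until proteases such as cathepsin S cut it down to a short fragment. H2-DM, a dimer of H2-DMa with an H2-DMb chain, then exchanges that fragment for peptide, and H2-DO, made of H2-Oa and H2-Ob, inhibits H2-DM. Ciita binds no DNA itself and is recruited to class II promoters by the RFX complex, CREB and NF-Y, and interferon gamma induces it through IRF1 and USF1. Dendritic cells, B cells and macrophages are the best known class II cells, but class II genes are also transcribed in hematopoietic stem and progenitor cells. C57BL/6 mice carry a defective H2-Ea, so the beta chain made from H2-Eb1 has no E alpha partner in them.

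The class II genes lie together on chromosome 17 of GRCm38 (GENCODE M21). H2-Aa spans chr17:34282744-34287823 on the minus strand, H2-Ab1 chr17:34257689-34269419, H2-Eb1 chr17:34305867-34316674, H2-DMa chr17:34119541-34139101 and H2-DMb1 chr17:34153072-34160230, these 4 on the plus strand. Ciita lies on chromosome 16 from 10480059 to 10528418, also on the plus strand. The library kits do not mark strand, so reads cannot be told apart where H2-DMa overlaps Brd2, where Ciita overlaps Dexi and where H2-Eb1 overlaps the antisense gene Gm20513, all on the opposite strand. H2-DMb1 and H2-DMb2 are close copies of each other, and reads may be split between them.

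RefSeq promoter windows (GRCm38.p6, 250 bases before to 50 after the start) were held for 4 of the 7 genes, H2-Aa, H2-Eb1, H2-DMa and H2-DMb1, and for the DO chain H2-Ob. Among these 5 genes, the differences between LSK cells with and without RBCs were largest for H2-Ob, H2-Eb1 and H2-Aa, so the 70 bases from 100 to 31 before the start are shown for those. The segments lie at chr17:34287854-34287923 (H2-Aa, minus strand), chr17:34305767-34305836 (H2-Eb1, plus strand) and chr17:34238805-34238874 (H2-Ob, plus strand) and are written 5′ to 3′ on the strand of the gene. Capitals mark 3 motifs on either strand. CCAAT is the core of the Y box that NF-Y binds. The motif TGACG is found in the X2 box that CREB binds. A further motif, TGATGATG, was added after the sequences had been read.
H2-Aa: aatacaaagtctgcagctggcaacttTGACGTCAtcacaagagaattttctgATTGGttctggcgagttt
H2-Eb1: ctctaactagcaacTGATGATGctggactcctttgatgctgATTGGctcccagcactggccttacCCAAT
H2-Ob: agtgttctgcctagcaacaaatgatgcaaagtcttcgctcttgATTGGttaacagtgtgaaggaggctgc
In all 3 segments ATTGG (the reverse complement of the Y box core) began between 48 and 59 bases before the start, at 48 in H2-Aa, 57 in H2-Ob and 59 in H2-Eb1. H2-DMb1 held it at 61, and 1 of the 2 H2-DMa windows held it at 198. Windows of H2-Oa, H2-DMb2 and H2-Eb2 were searched too and held it at 43, 90 and 100. The H2-Aa segment carried TGACG at 74 and, overlapping it, its reverse complement at 71. TGATGATG began at 86 in H2-Eb1 and at 89 in H2-DMb1. Of 32851 mouse promoter windows, 33.8% held the Y box core, 17.8% held the X2 motif, 1.24% held the added motif, and 6.40% held the Y box core together with either of the others, in the 250 bases before the start on either strand. These letters are a description of the windows and do not show binding.

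The values are FPKM, fragments per kilobase of transcript scaled to the mapped fragments of each library, as deposited. A gene was tested where at least 2 libraries reached an FPKM of 1, which held for 12003 genes and for all 7 described here. Ciita reached it in 3 of its 8 libraries and the others in every library. By FPKM, a scale per length on which levels can be compared between genes, H2-DMa was the most abundant, with 116 to 248 over the 8 libraries and a rank between 437 and 1074 of 24346 genes. H2-Ab1 followed with 76.8 to 108, then H2-DMb1 with 51.5 to 70.7, Cd74 with 29.9 to 63.8, H2-Aa with 17.3 to 40.2 and H2-Eb1 with 6.90 to 14.7. Ciita was lowest, between 0.366 and 1.44 FPKM. The depths of the libraries lay between 0.886 and 1.13 times that of LSK_Ctrl replicate 1. For 5 of the 7 genes the FPKM steps gave whole reads (tolerance 0.02), which are lower bounds: 142 to 264 reads per library for H2-Eb1, 195 to 417 for H2-Aa, 725 to 1037 for H2-DMb1, 996 to 1302 for H2-Ab1 and 2164 to 4559 for H2-DMa. Cd74 and Ciita gave no whole reads, so their depth is unknown.

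**Figure D1:**
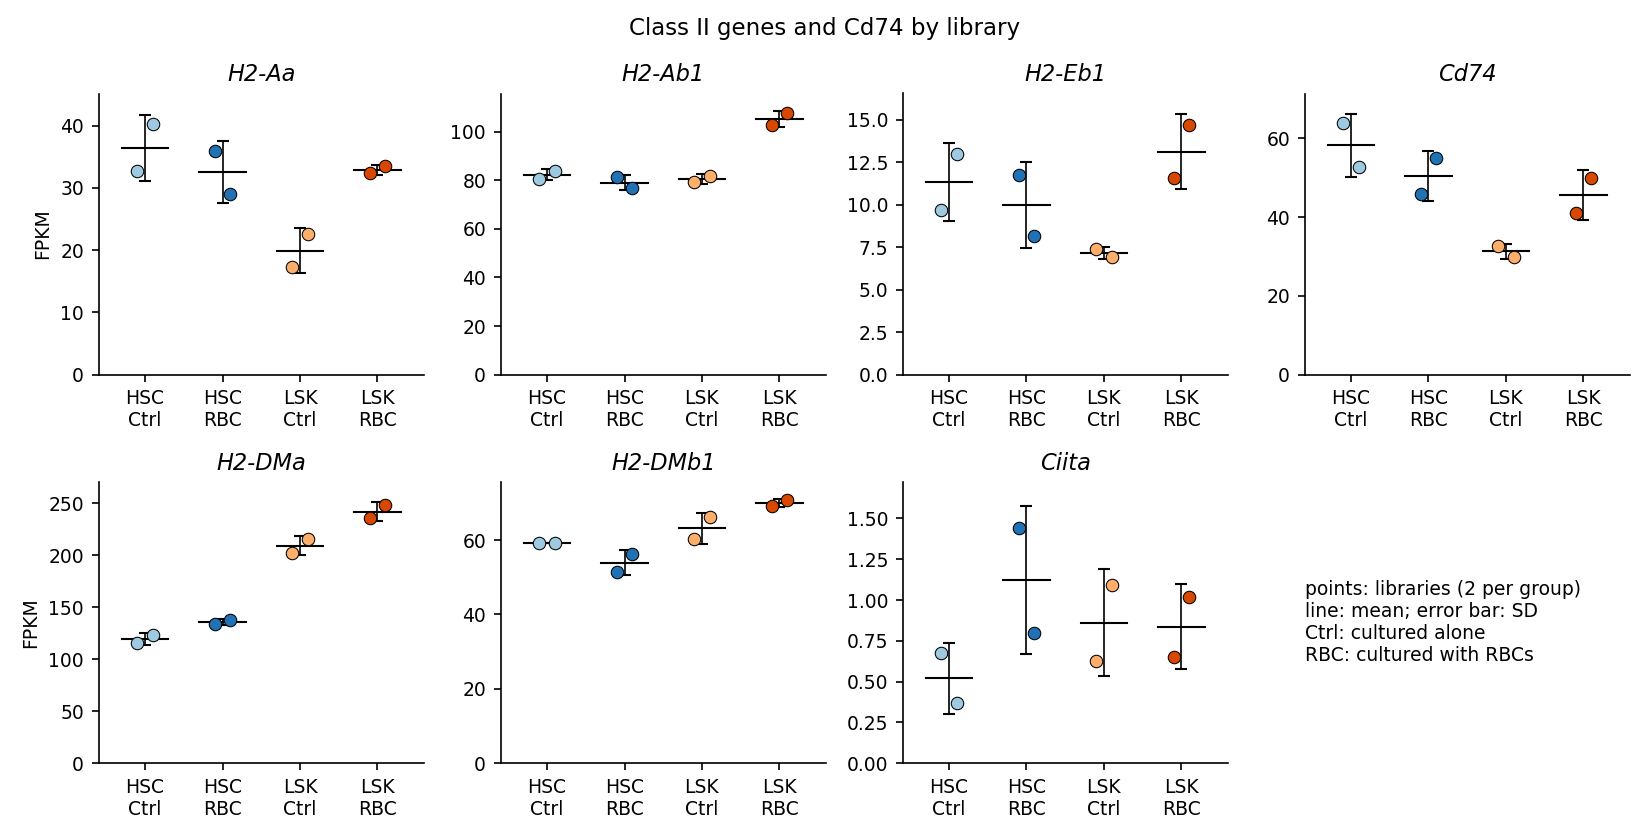
FPKM (vertical axes, each from 0) of the 7 genes in the 8 libraries, grouped as HSCs or LSK cells cultured alone (Ctrl) or with RBCs; points are libraries, lines are means and error bars are SD (n = 2). H2-Aa, H2-Eb1 and Cd74 are lowest in LSK cells without RBCs, H2-Ab1 stands highest in LSK cells with RBCs, and H2-DMa is at 203 or more in all 4 LSK libraries and at 138 or less in all 4 HSC libraries.

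The first comparison asked what coculture with RBCs did in LSK cells. H2-Aa and H2-Ab1, the alpha and beta chain of the I-A molecule, rose 1.63-fold and 1.30-fold. H2-Eb1 and Cd74 were higher by a similar size without passing the test. The members were compared with limma on log2(FPKM + 1), in which differences of genes with low FPKM are understated, and a gene passed with a Benjamini-Hochberg adjusted p under 0.05 over all genes tested. In LSK cells 2 of the 7 genes passed with higher expression, against 2.32% of all genes tested, and 5 of 7 had an unadjusted p under 0.05 with higher expression, against 9.52% of all genes. None was called, which also needed a change of at least 2-fold (0 of 7, against 1.01% of all genes in either direction). In 6 of the 7 genes both libraries with RBCs lay above both libraries without them, as in 24.2% of all genes. The median log2 difference was 0.38 over the 7 genes and -0.01 over all genes tested.

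H2-Aa stood at 17.3 and 22.5 FPKM in LSK_Ctrl and at 32.3 and 33.5 in LSK_RBC, a log2 difference of 0.71 (SE 0.149, limma adjusted p = 0.038). The groups did not overlap, and most of the spread lay in the libraries without RBCs. For H2-Ab1 the LSK_Ctrl libraries had 79.1 and 81.9 FPKM and the LSK_RBC libraries 103 and 108, a log2 difference of 0.38 (SE 0.0671, limma adjusted p = 0.018). H2-Eb1, the beta chain of I-E, had 7.42 and 6.90 against 11.6 and 14.7 FPKM, a log2 difference of 0.78 (SE 0.193, limma adjusted p = 0.065). All 3 chains were thus separated between the groups, but the test was passed by the I-A chains alone. The calls depended on single libraries. Without LSK_Ctrl replicate 1, LSK_RBC replicate 1 or LSK_RBC replicate 2, neither chain passed (adjusted p = 0.19, 0.15 and 0.20 for H2-Aa and 0.12, 0.085 and 0.15 for H2-Ab1), and without LSK_Ctrl replicate 2 only H2-Aa did (adjusted p = 0.045, against 0.075 for H2-Ab1). The log2 differences then lay between 0.53 and 0.89 for H2-Aa and between 0.35 and 0.41 for H2-Ab1. With the mean-variance trend left out, neither passed either (adjusted p = 0.10 and 0.081).

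Cd74 lies apart from the class II cluster, on the plus strand of chromosome 18 from 60803848 to 60812652. Besides escorting class II chains, its product serves as a receptor for the cytokine MIF. Cd74 had 32.6 and 29.9 FPKM in LSK_Ctrl and 41.0 and 50.0 in LSK_RBC. The groups did not overlap, and the log2 difference of 0.52 (SE 0.131, limma adjusted p = 0.069) did not pass. The values of H2-DMa were 203 and 215 FPKM in LSK_Ctrl and 235 and 248 in LSK_RBC, a log2 difference of 0.21 (SE 0.0664, limma adjusted p = 0.13). H2-DMb1 had 60.2 and 66.2 against 69.3 and 70.7 FPKM, a log2 difference of 0.15 (SE 0.0771, limma adjusted p = 0.35). The loading genes were thus separated by group too, with smaller log2 differences than those of the chains and Cd74. Ciita had 0.629 and 1.10 FPKM without and 0.651 and 1.02 with RBCs, overlapping groups with a log2 difference of -0.02 (SE 0.235, 95% confidence interval -0.55 to 0.51, limma adjusted p = 0.98).

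In HSCs, coculture with RBCs left all 7 genes short of the threshold. None passed (0 of 7, against 2.53% of all genes tested, with 1 of 7 at an unadjusted p under 0.05, against 13.7%) and 0 of 7 were called, against 0.775% of all genes. Both HSC_RBC libraries lay above both HSC_Ctrl libraries for H2-DMa and Ciita (19.9% of all genes) and below them for H2-DMb1 (21.8% of all genes). The median log2 difference was -0.14.

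H2-Aa had 32.7 and 40.2 FPKM in HSC_Ctrl and 36.0 and 29.0 in HSC_RBC, a log2 difference of -0.16 (95% confidence interval -0.50 to 0.18, limma adjusted p = 0.73). For H2-Ab1 the values were 80.7 and 83.8 against 81.3 and 76.8 FPKM (log2 difference -0.06, interval -0.21 to 0.09, limma adjusted p = 0.81), and for H2-Eb1 9.70 and 13.0 against 11.7 and 8.17 FPKM (-0.18, interval -0.61 to 0.26, limma adjusted p = 0.79). The libraries of the chains overlapped between the groups. Their intervals end below the log2 differences measured in LSK cells, but those have errors of their own, so this does not test a difference between the populations. Cd74 had 63.8 and 52.6 FPKM without RBCs and 46.0 and 55.0 with RBCs (log2 difference -0.20, interval -0.50 to 0.09, limma adjusted p = 0.59). H2-DMa had 116 and 123 against 134 and 138 FPKM, a log2 difference of 0.18 (SE 0.0664, limma adjusted p = 0.25), and H2-DMb1 59.3 and 59.3 against 51.5 and 56.4 FPKM, a log2 difference of -0.14 (limma adjusted p = 0.51). The H2-DM chains thus lay on opposite sides of their controls. Ciita had 0.674 and 0.366 against 1.44 and 0.801 FPKM, a log2 difference of 0.47 (SE 0.235, limma adjusted p = 0.44).

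**Figure D2:**
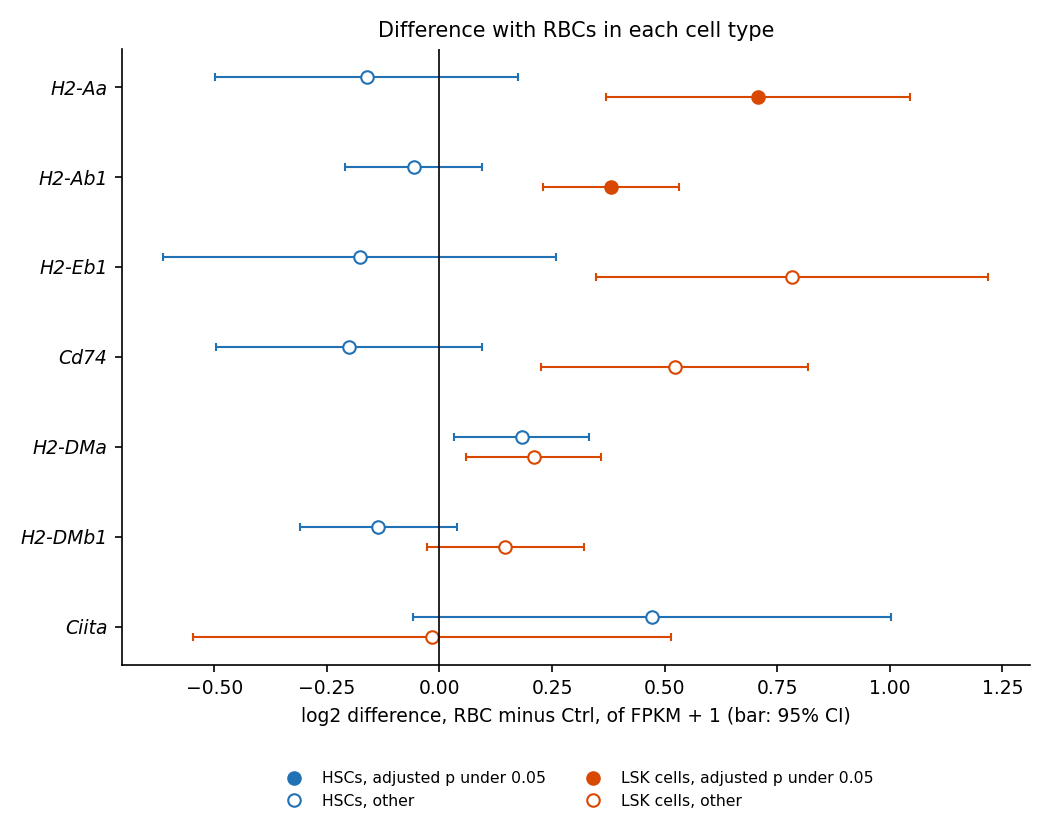
Log2 difference between cultures with and without RBCs (horizontal axis, on the log2(FPKM + 1) scale) for each of the 7 genes in HSCs (blue) and LSK cells (orange); bars are 95% confidence intervals and filled points passed an adjusted p of 0.05. Only H2-Aa and H2-Ab1 in LSK cells are filled, at 0.71 and 0.38, while their values in HSCs are -0.16 and -0.06.

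Whether the RBC effect differed between the populations was tested with an interaction term (effect in HSCs minus effect in LSK cells). It was -0.87 for H2-Aa, -0.44 for H2-Ab1, -0.96 for H2-Eb1 and -0.72 for Cd74, with limma adjusted p-values of 0.18, 0.14, 0.22 and 0.19. With H2-DMb1 (-0.28), 5 of 7 genes had an unadjusted p under 0.05, against 12.5% of all genes, yet 0 of 7 passed after adjustment, when 0.133% of all genes did, and 0 of 7 were called, against 0.108%. The difference between the populations in the response of the class II chains and Cd74 was therefore not established over all genes. For H2-DMa the interaction was -0.03 (95% confidence interval -0.24 to 0.19, limma adjusted p = 0.94). Averaged over both cell types, all 7 genes had positive log2 differences with RBCs, as 46.6% of all genes did. Of these, 1 of 7 passed, against 5.37% of all genes in either direction and 3.38% as higher. None was called (0 of 7, against 0.750% of all genes). H2-Eb1 (0.30), H2-Aa (0.27) and Ciita (0.23) had the larger differences without passing. The gene that passed was H2-DMa, higher by 0.20 on the log2 scale (SE 0.0470, limma adjusted p = 0.046). That call was lost in 7 of the 8 fits that left out a library (adjusted p between 0.075 and 0.17), the exception being HSC_Ctrl replicate 2.

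LSK cells were next compared with HSCs in the absence of RBCs. Cd74 and H2-Aa were 1.83-fold and 1.79-fold lower in LSK_Ctrl than in HSC_Ctrl, and H2-DMa was 1.74-fold higher. Thus 2 of 7 genes passed with lower expression (7.29% of all genes) and 1 of 7 with higher expression (6.93% of all genes). None of the 7 was called, against 2.66% of all genes. Both LSK_Ctrl libraries lay below both HSC_Ctrl libraries for H2-Aa, H2-Eb1 and Cd74 (26.9% of all genes) and above them for H2-DMa and H2-DMb1 (28.0% of all genes). The log2 difference was -0.87 for Cd74 (SE 0.131, limma adjusted p = 0.0030), -0.84 for H2-Aa (SE 0.149, limma adjusted p = 0.0065) and 0.80 for H2-DMa (SE 0.0664, limma adjusted p = 1.0e-04). Each of these 3 genes also passed with a pseudocount of 0.1, looser filters, other scalings, no trend, only these groups in the fit and a replicate block. Without 1 library at a time, the log2 difference lay between -1.01 and -0.73 for Cd74 and between -1.02 and -0.66 for H2-Aa. For H2-DMa it lay between 0.75 and 0.85. H2-Eb1 pointed the way of its neighbour H2-Aa with -0.58 (limma adjusted p = 0.077) without passing. H2-Ab1, the partner chain of H2-Aa, had a log2 difference of -0.03 with an interval from -0.18 to 0.12. H2-DMb1 and Ciita had 0.09 and 0.29 (limma adjusted p = 0.49 and 0.47). The LSK_Ctrl libraries in which H2-Aa and Cd74 were low are also the controls of the LSK coculture, so these comparisons are not independent of each other.

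With RBCs in both cultures, the order was another. H2-Ab1, H2-DMa and H2-DMb1 were higher in LSK_RBC than in HSC_RBC by 0.41 (SE 0.0671, limma adjusted p = 0.0028), 0.83 (SE 0.0664, limma adjusted p = 8.0e-05) and 0.37 (SE 0.0771, limma adjusted p = 0.0083) on the log2 scale. These were 3 of 7 genes, against 11.9% of all genes passed with higher expression, and the same genes were those with no overlap upward (33.7% of all genes). None of the 7 was called, against 3.61%. H2-Aa, Cd74 and H2-Eb1 had log2 differences of 0.03, -0.15 and 0.38 (limma adjusted p = 0.92, 0.45 and 0.19). H2-DMb1 no longer passed without LSK_RBC replicate 2 or without HSC_RBC replicate 1. Without 1 library at a time, its log2 difference lay between 0.31 and 0.44.

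**Figure D3:**
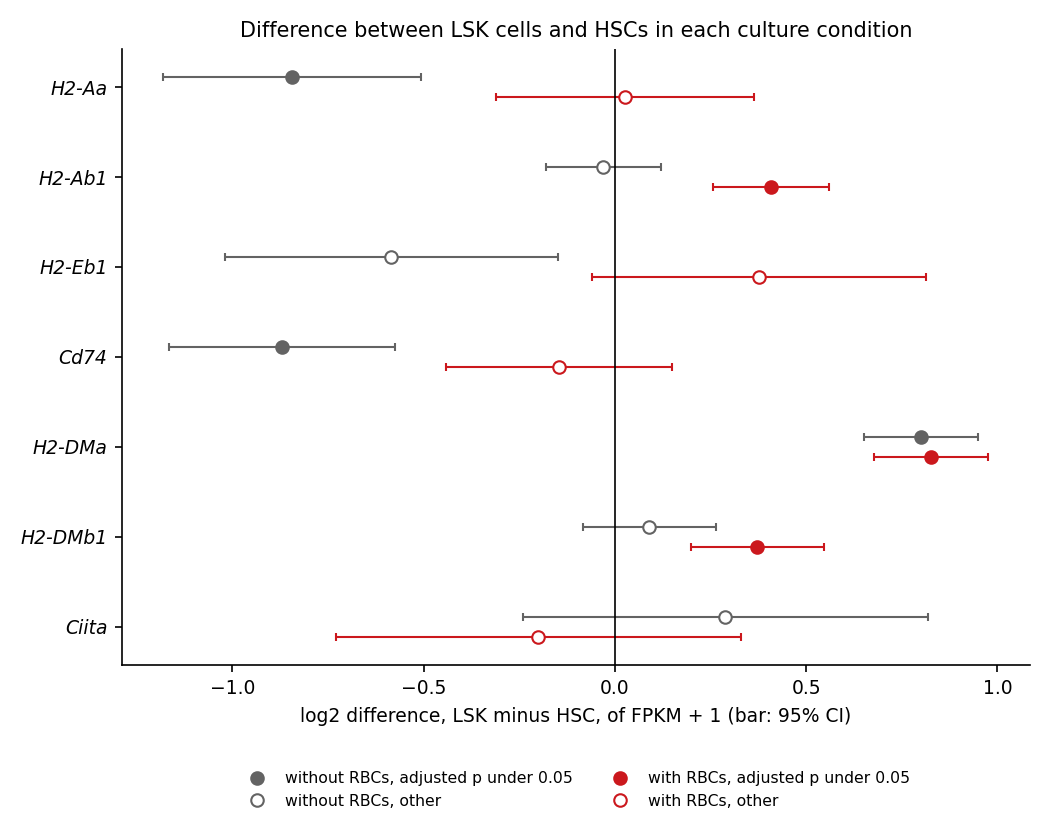
Log2 difference between LSK cells and HSCs (horizontal axis, on the log2(FPKM + 1) scale) for each of the 7 genes without RBCs (gray) and with RBCs (red); bars are 95% confidence intervals and filled points passed an adjusted p of 0.05. H2-DMa sits at 0.80 and 0.83, while Cd74 and H2-Aa move from -0.87 and -0.84 without RBCs to -0.15 and 0.03 with RBCs.

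Averaged over both culture conditions, 5 of the 7 genes differed between LSK cells and HSCs (32.9% of all genes did) and 0 were called (2.72% of all genes). H2-DMa was 1.76-fold higher in LSK cells (limma adjusted p = 5.2e-06), with 203 to 248 FPKM in 4 LSK libraries and 116 to 138 in 4 HSC libraries. H2-DMb1 and H2-Ab1 were 1.17-fold and 1.14-fold higher, and Cd74 and H2-Aa were 1.42-fold and 1.33-fold lower (limma adjusted p = 0.011, 0.014, 0.0031 and 0.016). For H2-DMa and H2-DMb1 all LSK libraries lay above all HSC libraries, which gives p = 0.029 in an exact two-sided permutation test of 4 against 4 libraries, the smallest value that test allows (0.14 after Benjamini-Hochberg adjustment over 20 such tests). The share of all genes with all 4 LSK libraries above all 4 HSC libraries was not counted. Both LSK libraries lay above both HSC libraries in 28.0% of all genes without RBCs and in 33.7% with RBCs. With 2 libraries against 2 the exact test cannot go below 0.333. The average of H2-Aa did not pass without replicate 1 of LSK_Ctrl, LSK_RBC or HSC_RBC or replicate 2 of HSC_Ctrl (adjusted p between 0.051 and 0.060), nor that of H2-Ab1 without replicate 2 of LSK_Ctrl, LSK_RBC or HSC_RBC (adjusted p between 0.051 and 0.061). Brd2, which overlaps H2-DMa on the other strand, was higher in LSK cells as well (24.2 to 31.3 FPKM in HSCs, 39.2 to 43.4 in LSK cells, averaged log2 difference 0.54), and its part in the H2-DMa value was not tested.

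The levels placed the groups in a different order for each gene. For H2-DMa it ran HSC_Ctrl, HSC_RBC, LSK_Ctrl, LSK_RBC from low to high, and neighbours within a cell type did not pass. For H2-Ab1, LSK_RBC stood above the other groups, whose libraries all lay between 76.8 and 83.8 FPKM. For Cd74 and H2-Aa, LSK_Ctrl stood below the other 3 groups, whose means lay between 45.5 and 58.2 FPKM for Cd74 and between 32.5 and 36.4 FPKM for H2-Aa. Ratios of partner chains within a library are given as a description. H2-Aa to H2-Ab1 was 0.406 and 0.479 in HSC_Ctrl, 0.443 and 0.378 in HSC_RBC, 0.219 and 0.275 in LSK_Ctrl and 0.314 and 0.311 in LSK_RBC. It was below 0.32 in all LSK libraries and above 0.37 in all HSC libraries. The ratio of H2-DMa to H2-DMb1 was 1.95 and 2.08 in HSC_Ctrl, 2.60 and 2.44 in HSC_RBC, 3.36 and 3.26 in LSK_Ctrl and 3.40 and 3.51 in LSK_RBC, with no overlap between any groups.

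Other genes of the pathway came from lists written by role. Their counts stand against 2.32% of all genes that passed as higher with RBCs in LSK cells and 1.57% in HSCs. At an unadjusted p under 0.05 in either direction (limma), the shares with RBCs were 18.6% in LSK cells and 13.7% in HSCs. In the peptide loading list (H2-DMa, H2-DMb1, H2-DMb2, H2-Oa, H2-Ob), 1 of 5 genes passed as higher with RBCs in LSK cells and 1 of 5 in HSCs, H2-Ob and H2-DMb2 respectively. H2-Ob, the DO beta chain, had 7.75 and 7.88 FPKM in HSC_Ctrl, 9.62 and 8.77 in HSC_RBC, 25.6 and 31.2 in LSK_Ctrl and 60.6 and 66.6 in LSK_RBC. It was 2.21-fold higher with RBCs in LSK cells (log2 1.14, SE 0.115, limma adjusted p = 0.0011), 3.32-fold higher in LSK_Ctrl than in HSC_Ctrl and 6.33-fold higher in LSK_RBC than in HSC_RBC (limma adjusted p = 3.2e-05 and 2.8e-06). Its interaction was -0.93 (limma adjusted p = 0.075). H2-Oa, the DO alpha chain, did not follow: it had 14.4 and 16.3 FPKM in HSC_Ctrl, 20.9 and 21.6 in HSC_RBC, 14.6 and 12.0 in LSK_Ctrl and 11.8 and 14.0 in LSK_RBC. It was 1.61-fold lower in LSK_RBC than in HSC_RBC (limma adjusted p = 0.0052), and the ratio of H2-Oa to H2-Ob was 1.86 to 2.46 in the HSC libraries, 0.569 and 0.386 in LSK_Ctrl and 0.195 and 0.209 in LSK_RBC. H2-DMb2 was the gene higher in HSCs with RBCs, from 3.43 and 2.45 to 7.84 and 6.46 FPKM (log2 1.06, SE 0.160, limma adjusted p = 0.011). It rested on at least 29 and 17 reads against at least 59 and 55. In LSK cells it had 5.72 and 5.73 FPKM without and 8.10 and 7.78 with RBCs (log2 0.41, limma adjusted p = 0.21).

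**Figure D4:**
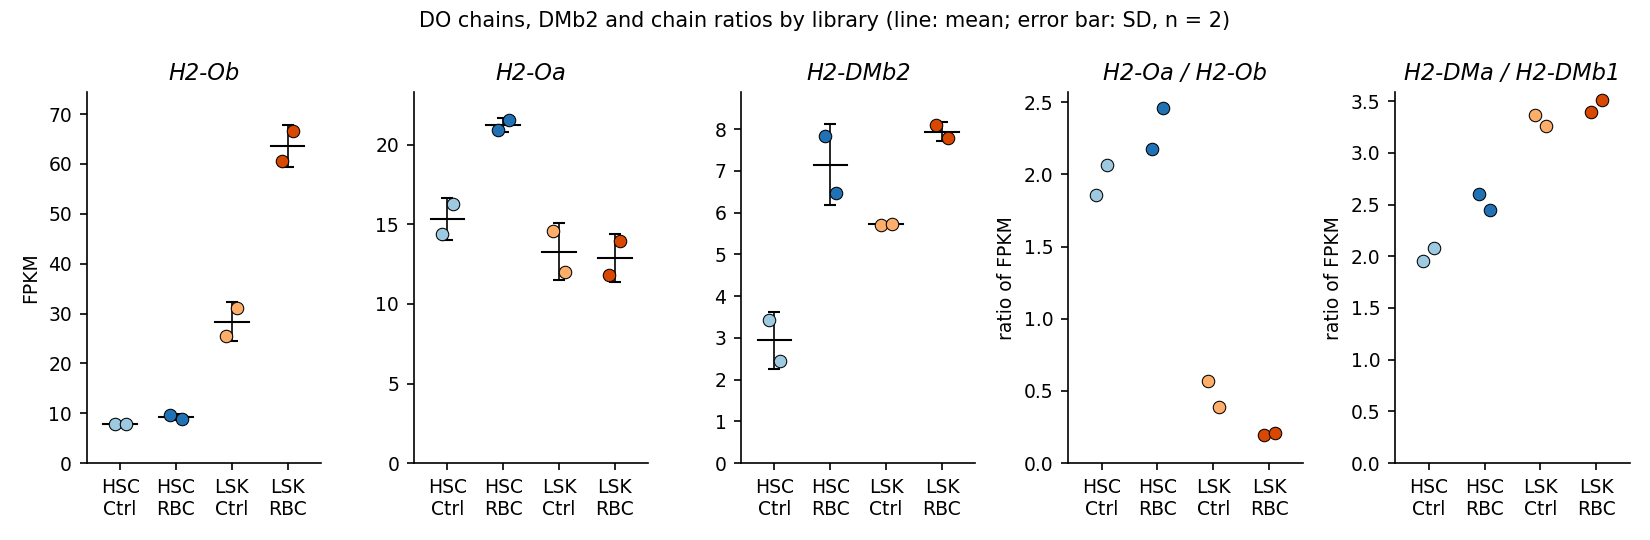
FPKM of H2-Ob, H2-Oa and H2-DMb2 (3 panels on the left; points are libraries, lines means, error bars SD, n = 2) and the ratios of H2-Oa to H2-Ob and of H2-DMa to H2-DMb1 in each library (2 panels on the right), all axes from 0. H2-Ob reaches 60.6 and 66.6 in LSK cells with RBCs and stays under 10 in HSCs, and the H2-Oa to H2-Ob ratio is above 1.8 in every HSC library and below 0.6 in every LSK library.

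The class II enhanceosome list, with Ciita, the RFX subunits, the NF-Y subunits and Creb1, had 0 of 8 genes past the limma threshold in each of the 7 comparisons, and 0 of 8 at an unadjusted p under 0.05. Over all genes these shares were lowest for the interaction, at 0.133% and 12.5%. They were highest for LSK cells against HSCs averaged over both conditions, at 32.9% and 43.7%. Nfyc, its most abundant member, ranged from 34.9 to 38.5 FPKM over all 8 libraries. Of the other class II chain genes, H2-Eb2 was at most 0.179 FPKM and the H2-Ea pseudogene H2-Ea-ps was listed at 0 in every library. In the list for invariant chain processing and antigen proteolysis, 1 of 10 genes passed as higher with RBCs in LSK cells and 0 of 10 in HSCs (2 of 10 at an unadjusted p under 0.05). The gene was Ctss, cathepsin S, the protease of the late step of invariant chain cleavage, with 32.7 and 32.2 FPKM in LSK_Ctrl and 49.0 and 48.3 in LSK_RBC (log2 0.57, SE 0.0795, limma adjusted p = 0.0069). In HSCs Ctss had 37.5 and 41.1 FPKM without and 46.9 and 50.5 with RBCs and did not pass. There too both libraries with RBCs lay above both without, as in 19.9% of all genes. Ctss, H2-Oa and the other genes of the pathway lists that are named without being called in any comparison or being first by level, and the marker genes named, were chosen after their values were seen. Ctsd, the most abundant of the list, was higher in LSK_Ctrl (958 and 1078 FPKM) than in HSC_Ctrl (626 and 680, log2 0.64, limma adjusted p = 8.5e-04).

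Along the interferon gamma route to Ciita, 1 of 10 genes passed as higher with RBCs in LSK cells and 0 of 10 in HSCs (3 of 10 at an unadjusted p under 0.05 in limma). This was Ifngr1, a receptor chain for interferon gamma, with 97.7 and 104 FPKM in LSK_Ctrl and 136 and 126 in LSK_RBC (log2 0.38, SE 0.0846, limma adjusted p = 0.046). Among the ligand and partners of Cd74 (Mif, Ddt, Cd44, Cxcr2, Cxcr4), 0 of 5 passed with RBCs in either cell type (1 of 5 at an unadjusted p under 0.05 in HSCs, 4 of 5 in LSK cells, limma). The MIF receptor gene Cxcr2 was called higher in LSK_RBC than in HSC_RBC (9.40 and 11.8 against 4.22 and 4.22 FPKM, log2 1.15, limma adjusted p = 0.0015), and Mif itself, at 1465 to 2170 FPKM, was lower in LSK cells averaged over both conditions (log2 -0.27, limma adjusted p = 0.0043). Of the list for class II turnover and costimulation, only March8 and Cd86 passed the filter. March8, a ubiquitin ligase gene, ranged from 8.58 to 11.8 FPKM and did not pass in any comparison. Cd86, a costimulatory ligand, had 2.12 and 2.27 FPKM in HSC_Ctrl, 2.35 and 2.92 in HSC_RBC, 0.719 and 1.20 in LSK_Ctrl and 2.25 and 2.40 in LSK_RBC. It passed as lower in LSK_Ctrl than in HSC_Ctrl (log2 -0.71, limma adjusted p = 0.031), and its difference with RBCs in LSK cells was 0.77 (limma adjusted p = 0.054).

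Markers of other cell types that carry class II moved with some of these results. In bulk RNA, fewer cells of a type and less RNA per cell cannot be told apart. The 9 monocyte or macrophage markers summed to 70.5 and 82.4 FPKM in LSK_Ctrl and 159 and 162 in LSK_RBC, against 90.8 to 116 in HSCs, where Cd68 made up most of the sum. Of all genes tested, 0.900% were called higher with RBCs in LSK cells and 0.633% in HSCs. Of the monocyte or macrophage markers, 2 of the 5 tested were called higher with RBCs in LSK cells, Csf1r (14.1 and 22.8 to 47.2 and 54.3 FPKM) and Ccr2 (7.61 and 4.57 to 34.4 and 35.0 FPKM). In HSCs 1 of 5 was, Csf1r (2.53 and 2.81 to 7.07 and 9.37 FPKM, log2 1.32, limma adjusted p = 0.012), while Ccr2 had 0.840 and 0.976 against 1.87 and 2.09 FPKM (limma adjusted p = 0.16). The macrophage gene Adgre1 was at most 0.566 FPKM, and Fcgr1 was listed at 0 in both LSK_RBC libraries. Cd68, a lysosomal protein gene of macrophages, moved with the lower Cd74 and H2-Aa of LSK_Ctrl: it had 85.9 and 107 FPKM in HSC_Ctrl and 43.8 and 48.6 in LSK_Ctrl (log2 -1.04, limma adjusted p = 5.4e-04), whereas Csf1r and Ccr2 were called higher there.

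The 9 dendritic cell markers summed to 207 and 220 FPKM in LSK_Ctrl, 246 and 234 in LSK_RBC and 116 to 150 in HSCs, most of it from Bst2 and Flt3. With RBCs, 0 of the 4 tested passed in either cell type, against 3.45% of all genes in LSK cells and 2.53% in HSCs. At an unadjusted p under 0.05 (limma) were 1 in LSK cells, against 18.6% of all genes, and 2 in HSCs, against 13.7%. Siglech, a marker of plasmacytoid dendritic cells, had 7.24 and 9.72 FPKM in LSK_Ctrl, 12.3 and 13.7 in LSK_RBC and at most 1.26 in HSCs. Among markers of conventional dendritic cells, Itgax, Xcr1 and Clec9a were under 1 FPKM in every library, Batf3 reached 1.38 and Zbtb46 1.64 FPKM. Cd209a, a lectin gene of dendritic cells, had 2.98 and 3.50 FPKM in HSC_Ctrl and 0.0598 and 1.24 in LSK_Ctrl and was called lower there (log2 -1.46, limma adjusted p = 0.016). It had 1.26 and 0.687 FPKM in HSC_RBC and 0.878 and 1.15 in LSK_RBC. The 7 B cell markers found summed to 34.8 to 40.3 FPKM in HSCs, 38.9 and 41.5 in LSK_Ctrl and 49.7 and 51.8 in LSK_RBC. Cd79b made up nearly all of each sum, with 36.6 and 40.6 FPKM in LSK_Ctrl and 47.7 and 51.0 in LSK_RBC. With RBCs, 0 of the 2 tested passed in either cell type (1 in LSK cells at an unadjusted p under 0.05, against 18.6% of all genes, limma). Ms4a1 was at most 0.165 and Pax5 at most 0.0863 FPKM. The 7 T or NK cell markers summed to at most 2.60 FPKM.

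Of the 8 neutrophil markers, 2 passed as higher with RBCs in LSK cells and 3 in HSCs, against 2.32% and 1.57% of all genes. Positive log2 differences were found for 8 of 8 in LSK cells and 7 of 8 in HSCs, against 48.0% and 48.2% of all genes. The 8 markers summed to 28.5 to 36.3 FPKM in HSC_Ctrl, 293 and 83.8 in HSC_RBC, 180 and 273 in LSK_Ctrl and 634 and 429 in LSK_RBC. Of the red blood cell markers 6 were tested, and with RBCs 3 were called higher in HSCs and 1 of them also in LSK cells. Of all genes, 0.633% were called higher in HSCs and 0.900% in LSK cells. The globin gene Hba-a1, called in both, had 0.0826 and 1.40 FPKM in HSC_Ctrl, 116 and 88.7 in HSC_RBC, 0.864 and 1.53 in LSK_Ctrl and 32.9 and 43.1 in LSK_RBC, with the limit that globin genes are close copies of each other. Of the 6 tested, 5 had positive log2 differences in HSCs and 4 in LSK cells, and 0 passed as lower. Hbb-b2, the most abundant of the list, went from 279 and 335 to 120 and 158 FPKM in HSCs. In LSK cells it went from 109 and 173 to 128 and 54.1 FPKM. The 8 markers summed to 282 and 338 FPKM in HSC_Ctrl and 308 and 299 in HSC_RBC. In LSK cells the sums were 111 and 177 without and 184 and 119 with RBCs. Of the 7 genes of the stem cell and progenitor gate, 3 passed as lower with RBCs in HSCs (Cd48, Procr and Kit), against 0.958% of all genes. There 6 of 7 had an unadjusted p under 0.05, against 13.7% (limma). Ly6a, which encodes Sca-1, was the 1 gene of 7 with a positive difference in HSCs. It went from 388 and 444 to 719 and 544 FPKM (log2 0.59) without passing, and from 381 and 226 to 204 and 170 FPKM in LSK cells. In LSK cells 0 passed, against 3.45% in either direction (3 of 7 at an unadjusted p under 0.05, against 18.6%, limma). Cd48 had 42.7 and 40.5 FPKM in HSC_Ctrl, 16.0 and 22.8 in HSC_RBC, 147 and 184 in LSK_Ctrl and 124 and 128 in LSK_RBC. Slamf1, which encodes CD150, had 10.2 and 10.7, 5.50 and 6.59, 4.58 and 4.63, and 3.09 and 4.28 FPKM in the same order of groups. The part of RNA of these lineages in the differences of Cd74 and the class II genes, and in those of H2-Ob, Ctss and Ifngr1, was not tested.

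**Figure D5:**
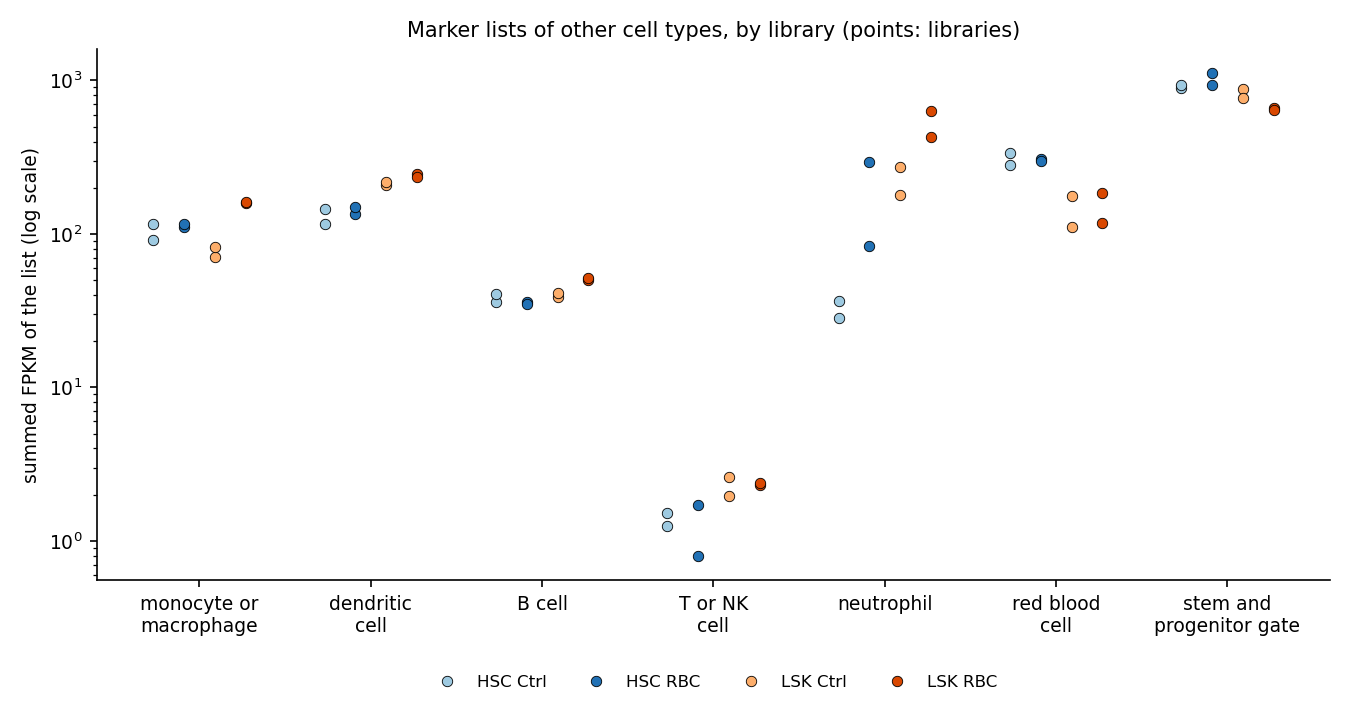
Summed FPKM (vertical axis, log scale) of marker lists for other cell types and for the sorting gate; each point is a library, colored by group. The monocyte or macrophage sum goes from 70.5 and 82.4 in LSK cells without RBCs to 159 and 162 with RBCs, and the HSC libraries lie between 90.8 and 116 in both conditions, although Csf1r of this list is called higher in HSCs with RBCs.

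By pattern, the gene most like Cd74 over the 8 libraries was Plxnc1, with a mean absolute difference of 0.067 between centered log2 values, followed by Gm16548 (0.074), Gm9199 (0.088), Epor (0.098) and Aven (0.10), among 12002 other genes tested. These values describe 8 libraries in 4 groups. The other members were less close to Cd74: H2-Aa ranked 999, H2-Eb1 2849, H2-Ab1 7431, H2-DMb1 8378, Ciita 8723 and H2-DMa 11550. Within the 7 genes, H2-Aa and H2-Eb1 were thus nearest to the invariant chain and H2-DMa farthest from it.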

How the data were processed

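The deposited tables, 1 for each library, hold the FPKM of every gene symbol, already scaled by the authors for transcript length and depth; replicates were not pooled. The cDNA was full-length (SMART-Seq HT, Nextera XT). The submitters' processing notes name TopHat2 2.1.1, Bowtie2 2.2.8, SAMtools 0.1.18, Cuffdiff 2.2.1 and mm10; the annotation is not given in the sources used here. An FPKM is relative to its library, so a few abundant genes can shift the rest, and absolute depth is unknown. Relative depth and whole reads were read from the steps of low values.

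From these, log2(FPKM + 1) was computed where at least 2 libraries reached an FPKM of 1, and limma 3.58.1 (R 4.3.3) with a mean-variance trend fitted the 4 group means over all 8 libraries, with 4 residual and 5.18 prior degrees of freedom. Groups came from the sample labels. A gene passed with a Benjamini-Hochberg adjusted p under 0.05 and was called if it also changed at least 2-fold. The procedure was tested on simulated data. Exact permutation tests took 4 against 4 libraries. The genes most like Cd74 were those with the lowest mean absolute difference of centered log2 values.

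By rule the genes named are the 7 members, the genes of the pathway lists that were called in any comparison or first by level, and the 5 nearest to Cd74; the other genes named, those of the marker lists included, were chosen after their values were seen. The members and lists were chosen with earlier results of these data known. Other settings tried were a pseudocount of 0.1, looser filters, 2 scalings, the trend, the groups in the fit, a replicate block, the fold threshold and the omission of each library. Coordinates came from GENCODE M21 (GRCm38) and promoters from RefSeq (GRCm38.p6); promoters of H2-Ab1, Ciita and Cd74 were not used here. Some items are not reported here.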

Additional observations from a re-analysis of the deposited data

How the results depend on the processing

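Of 812 values of single genes under the alternatives, 775 kept their direction and their side of the calling rule, 16 became called and 21 changed sign. No member was called in the main fit, so no call could be lost, and these counts do not measure how stable the passes were. Passes that were lost under other settings are given with their comparisons. The 16 include all members called by the rule with no fold threshold. The calling rule with no fold threshold gave 2 members in LSK cells with RBCs, 3 between LSK_Ctrl and HSC_Ctrl, 3 between LSK_RBC and HSC_RBC, 5 for LSK cells against HSCs averaged over both conditions and 1 for RBCs averaged over both cell types, where the 2-fold rule gave 0. Leaving out 1 library at a time gave 0 to 1 members called between LSK_Ctrl and HSC_Ctrl.

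Sign changes concerned differences that had not passed. Rescaling to equal sums gave 5.5e-06 for Ciita with RBCs in LSK cells and 0.0171 for H2-Ab1 between LSK_Ctrl and HSC_Ctrl, and quantile normalization gave -0.00189 for H2-Aa between LSK_RBC and HSC_RBC and -0.0417 for Ciita between LSK cells and HSCs averaged over both conditions. Without 1 library at a time, the log2 difference lay between -0.42 and 0.0605 for H2-Eb1 and RBCs in HSCs, between -0.20 and 0.17 for Ciita and RBCs in LSK cells, between -0.13 and 0.18 for H2-Aa and between -0.42 and 0.0205 for Ciita from HSC_RBC to LSK_RBC, between -0.0726 and 0.020 for the interaction of H2-DMa, between -0.22 and 0.0146 for H2-Eb1 and between -0.0660 and 0.15 for Ciita in the average of LSK cells against HSCs, and between -0.0280 and 0.0387 for H2-DMb1 in the average of RBCs. A fit of the LSK groups alone also passed H2-Eb1 with RBCs (adjusted p = 0.049). With no expression filter, H2-Aa did not pass there (adjusted p = 0.12).

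Replicate numbers are shared between groups, but replicates with the same number did not deviate together: the correlation over genes of the difference between replicates lay between -0.067 and 0.095 over 6 pairs of groups. With the replicate block, 0 members were called in each comparison, H2-Ab1 alone passed with RBCs in LSK cells (adjusted p = 0.039, against 0.056 for H2-Aa) and H2-DMa did not pass in the average of RBCs (adjusted p = 0.052). Leaving out a library leaves its group with 1, which is then assumed to vary like the other groups. Ciita, at about 1 FPKM, and H2-DMb2, with lower bounds of 17 to 59 reads, limit what can be said of small changes.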
